A study of Mus musculus with 8 samples.

Results

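Dual-specificity phosphatases (DUSP) that restrain mitogen-activated protein (MAP) kinases were described in tumour-infiltrating CD8+ T cells of mice with and without Pglyrp1, a gene for a secreted protein that binds bacterial peptidoglycan. The description covers 7 genes, Dusp1, Dusp2, Dusp4, Dusp5, Dusp6, Dusp10 and Dusp14, of 22 DUSP genes and 20029 genes in the deposited table. The genes were chosen by name with the KO and WT levels of these same libraries already known, so their differences between genotypes are given as a description without a test. Each was matched by its symbol and all 7 passed the filter on low values.

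The libraries came from subcutaneous MC38-OVA tumours, a mouse colon carcinoma line carrying the model antigen ovalbumin, grown in the right flank. The KO group was 4 mice of the B6.129S4-Pglyrp1tm1.1Lky/J strain (libraries KO 1 to KO 4), and the WT group was 4 C57BL/6J mice (libraries WT 6 to WT 9). The allele is that of the strain and is not limited to T cells, and the labels give neither the age of the mice nor whether the 2 strains were littermates. Per the labels' protocols, tumours were digested with collagenase D at 37 degrees for 20 min, and 1000 live CD8 cells that also carried CD45 and TCRβ were sorted into lysis buffer for each SMART-Seq2 library (full-length cDNA).

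MAP kinases (ERK, p38 and JNK) carry signals from the T cell receptor and from cytokine receptors, and are active when both a threonine and a tyrosine of their activation loop are phosphorylated. DUSP phosphatases remove both phosphates and so end the signal. Several of them, among them Dusp1, Dusp2, Dusp4, Dusp5 and Dusp6, are themselves transcribed in response to ERK or stress signals and act as feedback brakes, which makes their RNA a common readout of recent signalling in T cells. In bulk RNA a change in the share of cells that carry a transcript and a change in RNA per cell cannot be told apart.

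Expression is given as TPM (transcripts per 1000000): the deposited values of each library were rescaled to sum to 1000000. The authors' name for the values includes TPM, but the step that made them is not stated, so comparisons between genes below hold only if the values are per transcript length. The deposited sums were 2223162 to 3342847 per library, and 1 deposited unit was worth 0.299 to 0.450 TPM. Read counts were not analysed here, so the depth behind a value is unknown. Pglyrp1 was listed at 0 in every KO library and at 123 to 209.6 TPM in the WT libraries. The 6 CD8 T cell markers of the table, among them Cd3e, Cd8a and Cd8b1, summed to 4621 to 5069 TPM in KO and 4564 to 6339 TPM in WT libraries. Libraries stood apart within both groups. The 21 macrophage, monocyte and dendritic cell markers summed to 9504 and 12182 TPM in KO 3 and KO 4 and to 472 to 1820 TPM in the other 6 libraries. The naive and memory T cell markers Ccr7, Tcf7, Lef1, Il7r, Klf2 and S1pr1 summed to 1607 and 1447 TPM in WT 6 and WT 9, and to 251 to 1036 TPM in the others. The 8 natural killer cell markers include some that activated CD8 T cells or other cells also express. They summed to 210.0, 237.9, 2371 and 2665 TPM in KO 1 to KO 4 and to 70.1 to 97.9 TPM in the WT libraries. This sum thus separated the genotypes. Its highest values were in KO 3 and KO 4, where the macrophage, monocyte and dendritic cell sum was also high. Sums of CD4 and regulatory T cell markers (55.7 to 233 TPM), B cell markers (6.05 to 49.95 TPM) and tumour epithelium and stroma markers (19.8 to 127 TPM) overlapped between the genotypes, as did red cell and platelet markers (3.25 to 2095 TPM, with Hba-a2 and Ppbp at 0 throughout). Neutrophil markers summed to 14.2 to 130.4 TPM, with Mpo and Retnlg listed at 0 throughout.

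Promoter sequence was available for 6 of the 7 genes in RefSeq (GRCm38.p6, the mm10 chromosomes). The 250 bases before the start site are printed for Dusp1, Dusp2 and Dusp5, the 3 whose letters matched at least 1 of the motifs searched, so that the matches can be read beside the RNA levels. The search covered 10 motifs on both strands. For AP-1, the site of Fos and Jun dimers, the letters were TGANTCA. For the cyclic AMP response element (CRE), bound by CREB and ATF proteins, they were TGACGTCA, and its core, which the full element contains, was searched on its own as TGACG. The EGR motif of the early growth response factors was searched as GCGNGGGCG. The ETS motif, where ERK-responsive ETS factors bind, was searched as CCGGAAG. For the calcium-dependent factor NFAT the letters were GGAAAA. For the E-box, bound by Myc and USF proteins, they were CACGTG. The TATA box of core promoters was searched as TATAAA. The CArG box of serum response factor and the NF-kB consensus are given by name. Capitals mark matches.

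Dusp1, chr17:26508473-26508722, minus strand: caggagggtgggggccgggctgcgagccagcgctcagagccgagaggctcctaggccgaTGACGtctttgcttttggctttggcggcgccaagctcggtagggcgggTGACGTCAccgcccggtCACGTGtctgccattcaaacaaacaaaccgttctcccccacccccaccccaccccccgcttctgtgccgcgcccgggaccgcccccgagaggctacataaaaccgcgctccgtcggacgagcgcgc

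Dusp2, chr2:127335909-127336158, plus strand: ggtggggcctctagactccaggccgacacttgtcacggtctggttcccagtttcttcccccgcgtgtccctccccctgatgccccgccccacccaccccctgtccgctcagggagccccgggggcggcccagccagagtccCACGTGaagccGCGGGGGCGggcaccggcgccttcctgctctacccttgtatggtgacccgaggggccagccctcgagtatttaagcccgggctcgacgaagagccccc

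Dusp5, chr19:53528895-53529144, plus strand: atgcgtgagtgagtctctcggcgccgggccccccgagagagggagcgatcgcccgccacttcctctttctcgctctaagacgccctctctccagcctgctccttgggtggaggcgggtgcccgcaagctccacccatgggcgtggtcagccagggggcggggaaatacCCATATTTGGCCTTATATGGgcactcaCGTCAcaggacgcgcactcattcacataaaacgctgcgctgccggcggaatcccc

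The Dusp1 window held a full CRE at -143 to -136 from the start site, a further CRE core at -191 to -187 and an E-box at -126 to -121. A full CRE was found in 1.55% of 32851 promoters of the same length, its core in 17.8% and an E-box in 6.02%. In the Dusp2 window an E-box lay at -109 to -104 and an EGR motif at -98 to -90, the latter present in 4.70% of promoters. Dusp5 had 2 CArG boxes side by side, at -82 to -73 and -72 to -63, and a CRE core at -55 to -51. A CArG box was found in 1.47% of promoters. The RefSeq start used for Dusp14 lies inside the span given for that gene below, so its window does not precede the whole gene. The windows of Dusp6, Dusp10 and Dusp14 held none of the 10 motifs, which says only that these letters are not in those windows. AP-1 was found in 6.75% of all promoters, ETS in 6.91%, NFAT in 20.4%, NF-kB in 3.90% and TATA in 12.4%, and none of these in the windows of the 6 genes. GC content was 70.4% for Dusp2, 68.4% for Dusp1, 67.6% for Dusp14, 64% for Dusp5, 59.6% for Dusp10 and 56.4% for Dusp6, against a median of 52.4% over all promoters.

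The members did not move together between the genotypes. Dusp4 had no overlap between the genotypes, with KO on the higher side, and Dusp2 was lower in 3 of 4 KO libraries than in any WT library. Mean levels of Dusp6 and Dusp14 were higher in KO, that of Dusp1 was lower, and those of Dusp5 and Dusp10 were close, all with overlapping groups. Differences below are KO minus WT of log2(TPM + 1), a scale on which changes of low genes come out too small, with the SE of a limma fit over 10732 genes. By that fit 3 genes (0.0280%) had an adjusted p under 0.05, and 0 of the 7 members did. Without adjustment 974 genes (9.08%) had a p under 0.05, among them 2 members, Dusp2 and Dusp4. Nothing is read from these counts for the members, since the same contrast was known when they were chosen. The median difference over the 7 members was 0.29, beside 0.04 over all genes tested.

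**Figure D1:**
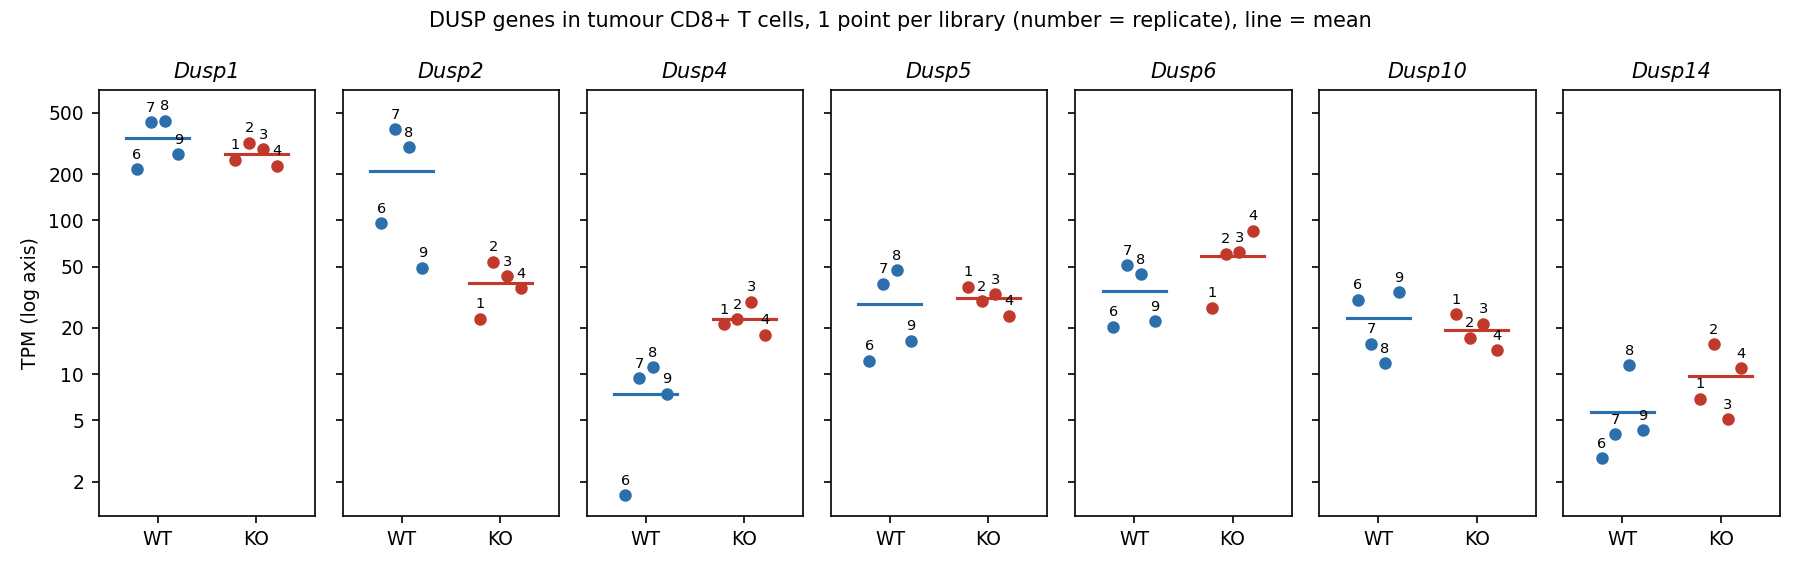
TPM (log axis) of the 7 DUSP genes in each WT (blue) and KO (red) library, with the replicate number above each point and a line at the group mean. Dusp4 is the gene whose groups do not overlap (KO 18.1 to 29.6, WT 1.63 to 11.1 TPM), and Dusp2 spans 22.9 to 390.4 TPM.

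Dusp4 (chr8:34807610-34819894), a nuclear phosphatase that is induced by ERK and acts on ERK, JNK and p38, was at 21.1, 22.7, 29.6 and 18.1 TPM in KO 1 to KO 4. It was at 1.63, 9.45, 11.1 and 7.47 TPM in WT 6 to WT 9. The lowest KO library lay above the highest WT library. Of all genes tested, 2.62% had every KO library above every WT library. The mean was 22.9 ± 4.88 TPM in KO and 7.41 ± 4.14 TPM in WT (SD, n = 4 each), a log2 difference of 1.69 (SE 0.44). WT 6 corresponds to 4 deposited units, so its level is the least precise. KO 1 and KO 2, in which myeloid markers were low, lay between KO 4 and KO 3, and the difference was 1.65 without KO 3 and KO 4. The natural killer cell sum was higher in all KO libraries, like Dusp4, and its part in the Dusp4 and Dusp2 differences was not tested. The Dusp4 difference was 1.06 without WT 6 and WT 9, where naive and memory markers were high, and 1.03 without all 4 of these libraries.

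Dusp2 (chr2:127336159-127338377), also called PAC-1, is a nuclear phosphatase of activated lymphocytes. Its levels were 22.9, 53.8, 43.4 and 36.2 TPM in KO 1 to KO 4. In WT 6 to WT 9 they were 95.9, 390.4, 299.3 and 49.2 TPM. WT 7 and WT 8 were high and WT 9 lay within the KO range, so the groups overlapped through WT 9 and KO 2. The mean was 39.1 ± 13.0 TPM in KO and 208.7 ± 163 TPM in WT (SD, n = 4 each), a log2 difference of -2.01 (SE 0.60). The spread within WT was 7.94-fold from lowest to highest library, against 2.35-fold within KO. The difference was -2.10 without KO 3 and KO 4. WT 6 and WT 9 held the lowest Dusp2 levels of the WT group, and the difference was -3.16 without them and -3.24 without all 4 libraries.

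Dusp2 and Dusp4 thus differed in opposite directions, a contrast picked out after their values were seen and given without a test. Dusp4 was at 42.1% to 92.4% of the Dusp2 level in the KO libraries. It was at 1.69%, 2.42%, 3.71% and 15.2% of it in WT 6 to WT 9. Put the other way, Dusp2 TPM divided by Dusp4 TPM was 6.58 to 59.0 in WT and 1.08 to 2.37 in KO libraries, where the 59.0 of WT 6 rests on 4 deposited units of Dusp4. The ratio separated the genotypes in all 8 libraries, as the Dusp4 level alone already did. The Dusp2 level of WT 9 lay within the KO range.

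**Figure D2:**
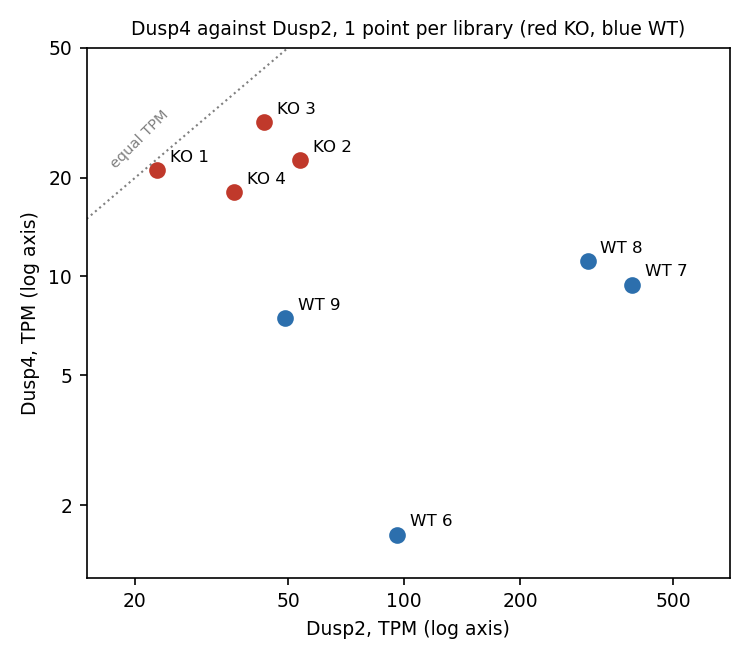
Dusp4 against Dusp2 in TPM, both axes log, for the 4 KO (red) and 4 WT (blue) libraries. The KO libraries lie nearer to the line of equal TPM (ratios of Dusp2 to Dusp4 of 1.08 to 2.37), than the WT libraries do (6.58 to 59.0).

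Dusp1 (chr17:26505591-26508472), the prototype nuclear phosphatase of the stress response with a preference for p38 and JNK, was the most abundant DUSP gene in every library. It was at 248, 321, 292 and 226 TPM in KO 1 to KO 4. WT 6 to WT 9 had 215, 436, 445 and 269.8 TPM. WT 7 and WT 8 lay above every other library, while WT 6 and WT 9 lay among the KO libraries or below them. The mean was 272 ± 42.5 TPM in KO and 342 ± 116 TPM in WT (SD, n = 4 each), a log2 difference of -0.27 (SE 0.25). It was -0.13 without WT 7 and likewise without WT 8, -0.47 without WT 6, and -0.71 without WT 6 and WT 9.

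Dusp5 (chr19:53529145-53541809), a nuclear phosphatase specific for ERK, is the gene with the paired CArG boxes printed above. Its levels were 37.1, 29.9, 33.2 and 24.0 TPM in KO 1 to KO 4, and 12.2, 38.7, 47.6 and 16.5 TPM in WT 6 to WT 9. The KO values lay between the low pair WT 6 and WT 9 and the high pair WT 7 and WT 8. The means were 31.0 ± 5.54 and 28.7 ± 17.1 TPM (SD, n = 4 each), and the log2 difference of 0.29 (SE 0.40) became -0.03 without WT 6 and -0.47 without WT 6 and WT 9. It was 0.11 without WT 9, 0.50 without WT 7 and 0.60 without WT 8.

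Dusp6 (chr10:99263231-99267489), the cytoplasmic phosphatase specific for ERK, was at 27.0, 60.8, 61.9 and 85.8 TPM in KO 1 to KO 4. It was at 20.3, 51.3, 44.8 and 22.03 TPM in WT 6 to WT 9. The 3 highest libraries were KO, but KO 1 lay below WT 7 and WT 8. The mean was 58.9 ± 24.2 TPM in KO and 34.6 ± 15.7 TPM in WT (SD, n = 4 each), a log2 difference of 0.75 (SE 0.40). KO 3 and KO 4, where myeloid markers were high, both exceeded the other 6 libraries for Dusp6 and for no other member, a pattern of 14.2% of all genes tested. KO 3 was only just above KO 2 (61.9 against 60.8 TPM), where the myeloid sum was 756 TPM. KO 1, with a myeloid sum of 771 TPM, was at 27.0 TPM. The difference was 0.34 without KO 3 and KO 4, 0.18 without WT 6 and WT 9, and -0.23 without all 4. The part of myeloid RNA in the Dusp6 level was not tested.

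Dusp10 (chr1:184034381-184075636), which acts on p38 and JNK rather than ERK, had the reverse order among the WT libraries. It was at 24.6, 17.2, 21.2 and 14.3 TPM in KO 1 to KO 4 and at 30.5, 15.7, 11.8 and 34.2 TPM in WT 6 to WT 9. WT 6 and WT 9 were the highest of the 8 libraries and WT 8 the lowest. The means were 19.3 ± 4.51 and 23.1 ± 10.95 TPM (SD, n = 4 each). The log2 difference of -0.15 (SE 0.34) turned to 0.03 without WT 6, 0.08 without WT 9 and 0.45 without both.

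Dusp14 (chr11:84048033-84069256), a small atypical member that lacks the kinase-binding domain of the others, was the least abundant member in KO cells. Its levels were 6.93, 15.7, 5.09 and 10.9 TPM in KO 1 to KO 4, and 2.84, 4.05, 11.5 and 4.33 TPM in WT 6 to WT 9. WT 8 lay above 3 of the 4 KO libraries. The means were 9.67 ± 4.72 and 5.67 ± 3.91 TPM (SD, n = 4 each), a log2 difference of 0.73 (SE 0.43). It was 0.47 without KO 2, the highest library, and 0.32 without WT 6 and WT 9. The deposited values behind these levels were 7 to 52 units.

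Much of the variation lay among the WT libraries. WT 7 and WT 8 were both above WT 6 and WT 9 for Dusp1, Dusp2, Dusp4, Dusp5 and Dusp6, and below both for Dusp10. Of all genes tested, 39.0% were higher and 17.2% lower in WT 7 and WT 8 in this way, so the pattern is common. The naive and memory markers ran the opposite way to those 5 genes: Ccr7, the chemokine receptor that guides T cells into lymph nodes, had 768.5 TPM in WT 6 and 652 TPM in WT 9, against 188 TPM in WT 7 and 134 TPM in WT 8. The B cell markers summed to 46.7 and 49.95 TPM in WT 6 and WT 9, against 7.20 and 9.72 TPM in WT 7 and WT 8. Their part in the DUSP levels was not tested. Within KO, KO 2 and KO 3 were both above KO 1 and KO 4 for Dusp1, Dusp2 and Dusp4, and not for the other members. This pair was picked after the values were seen. How many of all genes share its pattern was not counted, so nothing is read from it. The KO range from lowest to highest library was 1.42-fold for Dusp1 to 3.18-fold for Dusp6.

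**Figure D3:**
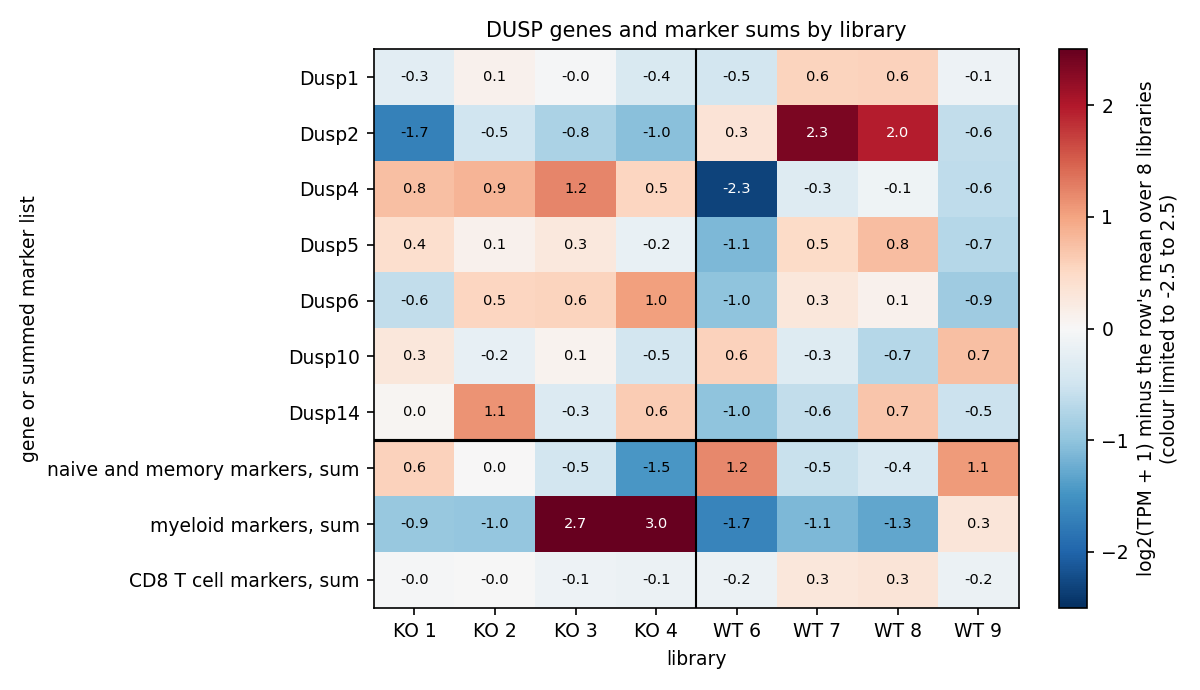
Each cell gives log2(TPM + 1) minus the row's mean over the 8 libraries, for the 7 DUSP genes and, below the line, for the summed TPM of 3 marker lists (red above the mean, blue below, colour limited to -2.5 to 2.5). WT 7 and WT 8 are above WT 6 and WT 9 in 5 DUSP rows and below in the Dusp10 row, and the myeloid sum is high in KO 3 and KO 4.

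Summed over all 22 DUSP genes, the level was 560.3 ± 67.9 TPM in KO and 747 ± 315 TPM in WT (SD, n = 4 each), with WT 7 and WT 8 at 1059 and 977 TPM. The 7 members made up 77.1% to 89.3% of that sum. Dusp1 took 42.0% to 52.3% of it in KO and 41.2% to 55.1% in WT libraries. The share of Dusp2 was 4.82% to 8.59% in KO and 10.03% to 36.9% in WT libraries. Dusp4 took 3.35% to 4.93% in KO and 0.351% to 1.52% in WT, and Dusp6 took 5.70% to 15.9% and 4.39% to 4.84%. The shares of 1 library depend on one another.

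On the TPM scale, and with the limit on comparing genes given above, the order of mean levels differed between the groups below Dusp1. In WT cells Dusp2 came next, above Dusp11 in 4 of 4 libraries, followed by Dusp11 (41.0 ± 7.01 TPM), Dusp6, Dusp5 and Dusp10. Dusp11, an atypical member that acts on RNA, was above Dusp6 in 2 of 4 libraries, and Dusp5 above Dusp10 in 2 of 4, so those neighbours were not separated. Dusp4 and Dusp22 both averaged 7.41 TPM, and Dusp14 was at 5.67 TPM, below Dusp7 on average but above it in 2 of 4. In KO cells Dusp6 came after Dusp1 and above Dusp2 in 4 of 4 libraries. Dusp2 was above Dusp11 in 3 of 4, Dusp11 above Dusp5 in 3 of 4, and Dusp5 above Dusp4 in 4 of 4.

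Of the 15 other DUSP genes of the table, Dusp11 had the highest level. Dusp8 and Dusp13 were listed at 0 in every library, and 8 of the 15 passed the filter. None of the 8 had a limma adjusted p under 0.05, and 3 had an unadjusted p under 0.05, each higher in KO, where the share over all genes tested was 9.08%. Dusp16, a typical phosphatase of JNK and p38, was at 2.43, 2.42, 4.79 and 4.21 TPM in KO 1 to KO 4 and 1.22, 2.25, 0.695 and 1.18 TPM in WT 6 to WT 9 (log2 difference 0.93, SE 0.31, limma adjusted p = 0.472). Dusp22, an atypical member that restrains T cell receptor signalling through Lck, had 15.6 ± 4.31 TPM in KO and 7.41 ± 3.86 TPM in WT cells (SD, n = 4, limma adjusted p = 0.472). Dusp3 was at 3.63 to 5.98 TPM in KO 1 to KO 3 and 16.0 TPM in KO 4, and at 1.18 to 3.60 TPM in WT (limma adjusted p = 0.527). The difference of Dusp3 was 1.07 with all libraries and 0.06 without KO 3, KO 4, WT 6 and WT 9. That of Dusp16 was 0.54, and that of Dusp22 0.22, in the same setting.

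Around the phosphatases, 10 lists of pathway genes held 148 genes of the table, of which 123 were tested. None had an adjusted p under 0.05 by limma. An unadjusted p under 0.05 was found for 18 of the 123, 13 higher and 5 lower in KO, against 9.08% of all genes tested. Their median difference was 0.03, beside 0.04 for all genes tested. List medians lay between -0.04 and 0.28. For the counts of signs given below, 5926 of all 10732 genes tested had a positive and 4806 a negative difference.

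Among 10 tested Sprouty, Spred and other inhibitors of Ras and ERK, 8 had a positive and 2 a negative difference (median 0.18). Spry2, a feedback inhibitor of ERK signalling, was at 11.8, 16.6, 12.6 and 13.5 TPM in KO 1 to KO 4 and 0.813, 0.900, 7.29 and 4.72 TPM in WT 6 to WT 9. Every KO library was above every WT library, as for 2.62% of all genes tested. The levels in WT 6 and WT 7 lie near the floor, since 1 deposited unit was worth 0.406 and 0.450 TPM there. The log2 difference was 2.02 (SE 0.49, limma adjusted p = 0.395). It was 2.07 without KO 3 and KO 4, and 1.92 without WT 6 and WT 9 as well. Spry1 had 5.79 ± 5.41 TPM in KO and 1.87 ± 1.16 TPM in WT (SD, n = 4), with KO 3 alone at 13.8 TPM (limma adjusted p = 0.575).

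Of 9 tested phosphatases of other families that act on MAP kinases, 5 were positive and 4 negative. Ptpn7, the haematopoietic tyrosine phosphatase that binds ERK and p38, had 98.9 ± 18.0 TPM in KO and 80.3 ± 23.4 TPM in WT (SD, n = 4, limma adjusted p = 0.673). Its mean TPM in KO was above that of every DUSP gene other than Dusp1. Ptpn5 was low, at 3.33 to 11.8 TPM in KO and 0 to 2.36 TPM in WT libraries (log2 difference 1.72, SE 0.47, limma adjusted p = 0.395).

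Of 9 MAP kinases tested, 4 were positive and 5 negative (median -0.03), from -0.58 for Mapk11 to 0.73 for Mapk3. An unadjusted p under 0.05 was found for 2 of the 9, against 9.08% of all genes tested: Mapk6 (26.3 ± 3.26 TPM in KO, 19.9 ± 2.85 TPM in WT, limma adjusted p = 0.530) and Mapk3, which encodes ERK1 (15.3 ± 4.19 and 9.09 ± 3.87 TPM, limma adjusted p = 0.536). Among 23 MAP2 and MAP3 kinases and their adaptors, 8 were positive and 15 negative, with Map3k5 (limma adjusted p = 0.550) and Map3k1 (limma adjusted p = 0.566) at the smallest p. Of 15 genes of Ras activation, 7 were positive and 8 negative. Rasgrp2, an exchange factor for Rap and Ras, had 14.0 ± 3.72 TPM in KO and 26.7 ± 13.9 TPM in WT (SD, n = 4, limma adjusted p = 0.574), and Sos2 had 5.27 ± 1.64 and 3.33 ± 0.931 TPM (limma adjusted p = 0.588). Of 10 kinases activated by MAP kinases 8 were positive, the 2 named being Mapkapk2 (log2 difference 0.41) and Rps6ka5 (-0.69).

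Transcripts commonly used as ERK outputs gave 13 positive and 4 negative differences among 17 tested (median 0.14). Of the 17, 3 had an unadjusted p under 0.05, against 9.08% of all genes tested. Ier3, an immediate early gene, was at 34.7, 34.5, 131.6 and 80.4 TPM in KO 1 to KO 4 and 10.2, 24.3, 27.4 and 15.3 TPM in WT 6 to WT 9 (log2 difference 1.68, SE 0.46, limma adjusted p = 0.395). KO 3 and KO 4 were the highest, and the difference was 0.90 without them and 0.41 without WT 6 and WT 9 as well. Elk4, an ERK-responsive partner of serum response factor, had 10.99 ± 0.877 TPM in KO and 19.0 ± 3.85 TPM in WT cells (SD, n = 4, log2 difference -0.72, SE 0.19, limma adjusted p = 0.395), with no overlap. Of all genes tested, 2.40% had every KO library below every WT library. The 24 genes of the dissociation and stress response, which can be induced during digestion at 37 degrees, split into 12 positive and 12 negative (median -0.02), and 9 had an unadjusted p under 0.05, against 9.08% of all genes tested. The highest of their differences was 2.23, for Atf3, and the lowest was that of Hspb1. Both had a larger limma p than Ier3 and Dnaja1, the genes named from this list. Dnaja1, a co-chaperone of that list, had 132 ± 17.02 TPM in KO and 175 ± 11.3 TPM in WT (SD, n = 4, limma adjusted p = 0.456).

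**Figure D4:**
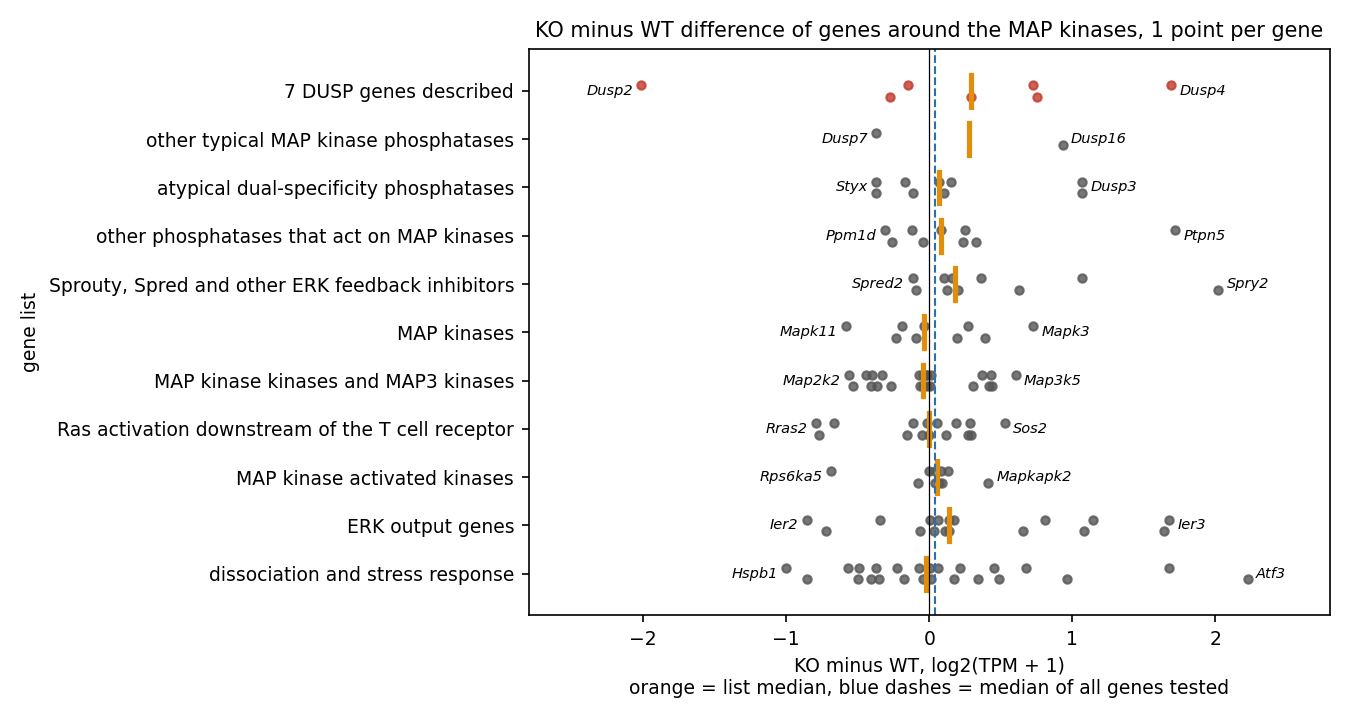
KO minus WT difference on the log2(TPM + 1) scale for the 7 DUSP genes (red) and 10 pathway lists (grey), 1 point per gene, with the list median (orange) and the median of all genes tested (blue dashes, 0.04). Dusp2 (-2.01) and Dusp4 (1.69) lie at the ends of their row, Spry2 is at 2.02, and the medians of the MAP kinase and MAP3 kinase rows are -0.03 and -0.04.

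The gene most like each member over the 8 libraries was sought among 8208 tested genes whose mean reached 5 TPM, by the Pearson correlation of log2(TPM + 1), as a description of these libraries that share the group difference and the WT contrast above. Each r below is the highest of 8208 over only 8 libraries, so a high value can come from the search alone. An r without 2 libraries is that of a gene already picked on all 8, so it is no independent check. No shared regulation is read from these genes. Dusp6 was most like Dut, which encodes dUTPase of nucleotide metabolism (r = 0.99, Spearman's rho 1.00, n = 8, and r = 0.99 without the 2 farthest libraries). Dusp4 was most like Serinc3 (r = 0.99, rho 0.93, and 0.94 without 2), and Dusp5 most like Pus10 (r = 0.98, rho 0.98, and 0.97 without 2). Dusp2 was most like Nlrc3, an inhibitory NOD-like receptor of T cells (r = 0.96, rho 0.88), with r = 0.78 without WT 7 and WT 8. Dusp1 was most like Dusp11 (r = 0.96, rho 0.95), Dusp14 most like Plekha5 (r = 0.97, rho 0.95) and Dusp10 most like 4933409K07Rik (r = 0.98, rho 0.98). The mean z-score of the 7 members was most like Clcn3, Med10, Gpr55, 1810037I17Rik and Tstd3 (r = 0.96 each), with r of 0.77 to 0.88 without WT 6 and WT 9.

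**Figure D5:**
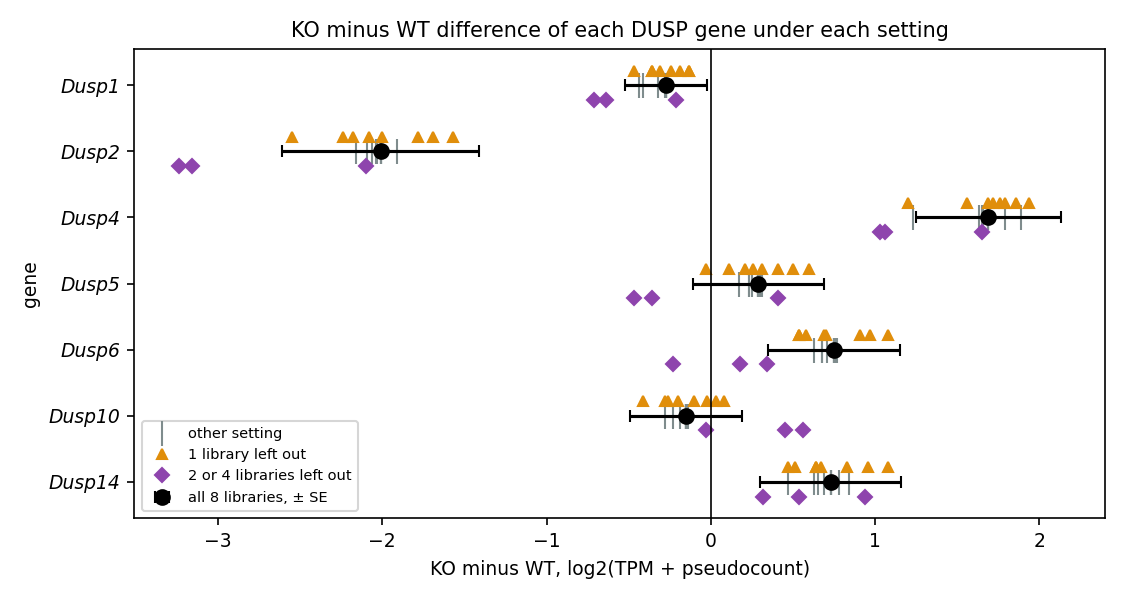
KO minus WT difference of each DUSP gene with all 8 libraries (black, bar = SE), with 1 library left out (orange), with 2 or 4 left out (purple) and under the other settings (grey ticks). Dusp2 stays below 0 (-3.24 to -1.57) and Dusp4 above 0 (1.03 to 1.94) in all 21 alternatives, while Dusp5, Dusp6 and Dusp10 cross 0. The groups of Dusp4 do not overlap, so leaving libraries out could not turn its sign.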

How the data were processed

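RNA was measured in 8 libraries, 4 per genotype, for 4 mice of each per the series' design text. The deposited values are a score that the authors named a TPM-normalized count: whole numbers that do not sum to 1000000. The submitters' processing notes name RSEM 1.3.3 and mm10. How the values were aligned, annotated and rounded is not given in the sources used here. Each library was rescaled to 1000000 and log2(TPM + 1) was fitted with limma 3.58.1 in R 4.3.3 (group only, empirical Bayes with a mean trend, Benjamini-Hochberg adjustment over all 10732 genes that reached 1 TPM in 4 or more libraries, or in as many as the smaller group holds where libraries were left out). The test was chosen for TPM. Rescaled values are called TPM here, though whether they are per length is not stated. The log2 difference compares each gene only with itself, but its SE and p also draw on the spread of other genes of like level. P-values weigh the group difference against the spread between libraries within a group. With a single library per mouse, that spread cannot be split into mouse and technical parts. The fit was also run on simulated data with genes drawn independently and large planted differences. That run does not cover small differences or libraries that stand apart as these do. Read counts were not at hand, so no counting intervals are given.

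The members, gene lists and settings were chosen with earlier results of these data known. Named pathway genes are those past the threshold in each list, up to 4, or else the 2 with the smallest p. Likeness names the genes nearest to the members' mean (5 of the 6 that the rule takes) and the nearest gene of each member. Of the tables used, RefSeq gave 6 of 7 promoters, and proteins were not analysed here. A marker gene and a likeness gene are not reported here. Alternatives varied the pseudocount, filter, scaling, limma options and libraries. Python 3.11.15 (numpy 2.4.6, pandas 2.3.3) handled the tables.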

Additional observations from a re-analysis of the deposited data

Results flagged for a closer look

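Among 60 groups of 4 libraries (the tested DUSP genes and the named pathway genes in each genotype), 2 had a lone library whose gap to its nearest neighbour was above Dixon's critical share of the group's range, where chance marks about 1 group in 20. Elk4 was at 9.68 TPM in KO 4, below 11.4 to 11.5 TPM in the other KO libraries. Rps6ka5 was at 1.26 TPM in KO 4, above 0.299 to 0.347 TPM in the other KO libraries. These are 3 deposited units in KO 4 and 1 unit in each of the others, so the narrow range of the others is that of the scaling. No group of any of the 7 DUSP genes described was marked.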

How the results depend on the processing

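No paired analysis was possible because no replicate number occurs in both genotypes (KO 1 to 4, WT 6 to 9). Over 21 alternatives, Dusp1 and Dusp2 stayed negative and Dusp4 and Dusp14 positive. For Dusp4, whose groups do not overlap, leaving libraries out could not turn the sign. Dusp2 was at -3.16 without WT 6 and 9, the WT libraries with its lowest levels, and no call is drawn from that setting. Signs turned for Dusp5 (-0.03 without WT 6, -0.47 without WT 6 and 9, -0.36 without KO 3, KO 4, WT 6 and WT 9), for Dusp6 (-0.23 without those 4) and for Dusp10 (0.03 without WT 6, 0.08 without WT 9, 0.45 without both, 0.56 without the 4, and -0.41 to 0.08 with 1 library left out). Ptpn7 and Mapkapk2 turned without WT 6 and 9 (-0.02 and -0.09) and without the 4 (-0.17 and -0.38). The median over the members was 0.03 to 0.60 with 1 library left out and -0.23 without the 4. Over all genes, 2 to 9 passed when a single library was dropped (5 without KO 1, 9 without KO 2, against 3 with all). The number was 5 when KO 3 and 4 were dropped, likewise 5 for WT 6 and 9, and 10 without the 4. The cause was not tested. Leaving out ribosomal protein and the most abundant genes shifted the median of all genes by -0.12. Relative to it the members' median was 0.25, as with the main scaling. In the 10 pathway lists 0 genes passed in any alternative. Among the 7 members, the unknown depth limits Dusp14 and the WT 6 value of Dusp4 most. It also limits other genes such as Spry1, Spry2, Ptpn5 and Dusp16, each below 1 TPM in at least 1 WT library.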
